A study of Homo sapiens with 6 samples.

Results

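The genes that encode the core proteins of the spliceosome and the SR proteins were followed in nascent RNA of melanoma cells with and without PRL3. Members were the protein-coding genes whose symbol begins with SNRP, SF3A, SF3B, PRPF, SRSF, LSM or U2AF followed by a letter or digit. This rule gave 64 genes of the 19708 protein-coding genes in the files, and all 64 had enough reads to be tested. The name rule also took in LSMEM1 and LSMEM2, which encode transmembrane proteins unrelated to splicing, and the others fell into classes by the known role of the protein (8 Sm ring genes, 13 LSm genes, 5 U1 factors, 14 U2 factors, 5 U5 and tri-snRNP factors, 5 other PRPF factors and 12 SR protein genes).

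A375 cells, an established human melanoma line, had been stably transfected either with an empty vector (EV, libraries B1, B2 and B3) or with a plasmid for expression of human PRL3, a phosphatase encoded by PTP4A3 (libraries B9, B10 and B11). Both lines were kept in hygromycin B, and both were labelled with 500 µM 4-thiouridine for 20 min, after which the labelled RNA was biotinylated, captured, freed of ribosomal RNA and sequenced (4sU-seq). Each line is 1 stable transfection, no untransfected cells were analysed here, and nothing in the labels says that the libraries of a group came from separate cultures, so p-values measure the spread between these libraries only. The lineage gene SOX10 was well counted, with 18852 to 28364 normalized counts in EV and 10593 to 13992 in PRL3 libraries. It was itself lower in PRL3 (log2 fold change -0.85, adjusted p = 0.00213 from edgeR), and its part in the results below was not tested. MITF went the other way, with 1492, 1208 and 1433 normalized counts in EV and 1714, 1795 and 1809 in PRL3 libraries. Its log2 fold change of 0.36 did not pass (adjusted p = 0.0738 from edgeR). PMEL was counted low, at 23.81 to 60.03 normalized counts (log2 fold change -0.33, adjusted p = 0.664 from edgeR). TYR, MLANA, TYRP1 and DCT had under 25 reads in every library.

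Between 36532207 and 57952035 reads per library lay on annotated exons. PTP4A3 checked the labels, with a log2 fold change of 6.80 (SE 0.25, adjusted p = 1.1e-08). Reads that aligned to no annotated exon made up 28.7% to 41.07% of uniquely aligned reads in EV libraries and 62.81% to 69.06% in PRL3 libraries. Ambiguous reads were 4.46% to 5.009% in EV and 1.671% to 2.535% in PRL3 libraries, and mitochondrial genes took 2.674% to 2.9% and 1.353% to 2.317% of the reads on genes. TMM scaling factors, which are computed from the gene counts alone and so leave out reads outside exons, were 0.8158 to 0.8944 and 1.121 to 1.253. These shares moved with every result below, and their part in them cannot be told apart from that of PRL3. Of 8 marker genes of other cell types, 6 had under 25 reads in every library, and the summed level of the 8 was 1165 to 1313 normalized counts in EV and 448 to 694 in PRL3 libraries, mostly from the keratin gene KRT14.

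Splicing removes introns in a sequence of steps carried out by small nuclear ribonucleoprotein particles (snRNPs), each an RNA with its own proteins. U1 marks the 5′ splice site, U2 binds the branch site, and the U4/U6.U5 tri-snRNP then joins to build the catalytic centre. U1, U2, U4 and U5 RNAs carry a ring of Sm proteins, U6 carries a ring of related LSm proteins, and SR proteins bind exons and recruit the particles to splice sites.

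Transcripts of the Sm ring, the LSm proteins and the U2 and U5 factors were mostly lower in PRL3 cells, while those of SR proteins mostly did not pass the test. Of the 64 genes, 29 (45.3%) had fallen and 7 (10.9%) had risen in PRL3 cells, taking an adjusted p of 0.05 as the threshold (quasi-likelihood test of edgeR, Benjamini-Hochberg adjustment over all 23884 genes tested, as for every adjusted p below). Among all genes tested, 22.7% were lower and 20.0% were higher, and among protein-coding genes 31.6% were lower and 15.2% were higher. The median log2 fold change (PRL3 minus EV) was -0.40 for the 64 genes, against 0.11 for all genes and -0.15 for protein-coding genes. All 3 PRL3 libraries lay below all 3 EV libraries in 31 of the 64 genes and above them in 8, where 26.6% and 29.7% of all genes did so. Of the 14443 protein-coding genes tested, 5307 lay below and 3201 above in this way. At an unadjusted p under 0.05 there were 38 genes of the 64, and 12027 of all 23884 genes tested. In bulk RNA, fewer cells with a transcript and less of it per cell cannot be told apart.

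**Figure D1:**
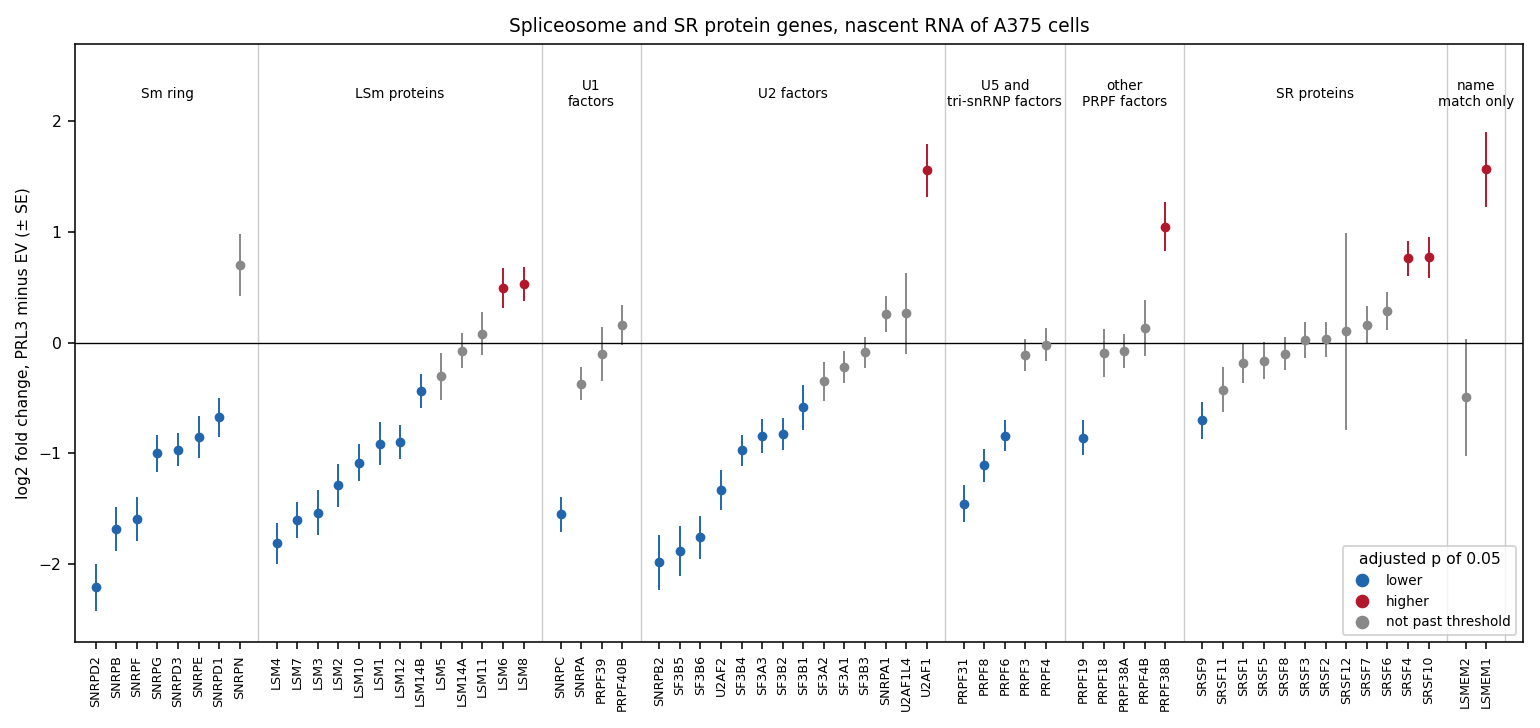
Log2 fold change of 63 of the 64 genes, PRL3 minus EV, with its standard error, grouped by class and coloured by the call at an adjusted p of 0.05. Of the 8 Sm ring genes 7 are lower and SNRPN lies above 0, whereas 9 of the 12 SR protein genes did not pass the threshold.

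The size of these differences depends on how libraries are scaled, since scaling shifts every gene by the same amount. Under TMM the median over all genes stood at 0.11, under library size alone at 0.60 and at -0.37 with all uniquely aligned reads as the library. Counts of the 64 genes were then 21 lower and 22 higher with library size alone, and 43 lower and 2 higher with all uniquely aligned reads. Relative to the median of all genes in the same fit, the Sm ring median was -1.09, and it lay between -1.22 and -0.83 over the alternatives run. The corresponding values were -1.01 (-1.13 to -0.74) for LSm genes, -0.82 (-0.96 to -0.55) for U2 factors and -0.95 (-1.07 to -0.69) for U5 and tri-snRNP factors. For SR protein genes the value was -0.08, and it changed sign over the alternatives (-0.22 to 0.18). The upper end of each of these ranges came from the fit of protein-coding genes only. In that fit the reference was the median of protein-coding genes, so the reference changed as well as the processing.

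Ratios within a library need no scaling. Reads on Sm ring genes per read on SR protein genes were 0.562, 0.752 and 0.517 in EV libraries (mean 0.61 ± 0.125, SD, n = 3) and 0.199, 0.221 and 0.199 in PRL3 libraries (mean 0.207 ± 0.0128, SD, n = 3). The same ratio for LSm genes was 0.345 ± 0.0541 in EV and 0.175 ± 0.00877 in PRL3 libraries (SD, n = 3). For U2 factors it was 0.869 ± 0.115 and 0.495 ± 0.0489, and for U5 and tri-snRNP factors 0.391 ± 0.054 and 0.214 ± 0.0308 (SD, n = 3 each). In all 4 ratios each PRL3 library lay below each EV library. The 4 ratios share their denominator, so they also move with the SR protein genes. Those took 0.245% to 0.3158% of the reads on genes in EV and 0.3837% to 0.4528% in PRL3 libraries. The share was 0.1562% to 0.1842% against 0.07654% to 0.09472% for the Sm ring and 0.09259% to 0.1012% against 0.07011% to 0.07519% for LSm genes. It was 0.2367% to 0.2605% against 0.2049% to 0.2105% for U2 factors and 0.107% to 0.1151% against 0.08631% to 0.0956% for U5 and tri-snRNP factors. The ratios are given as a description and were not tested.

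**Figure D2:**
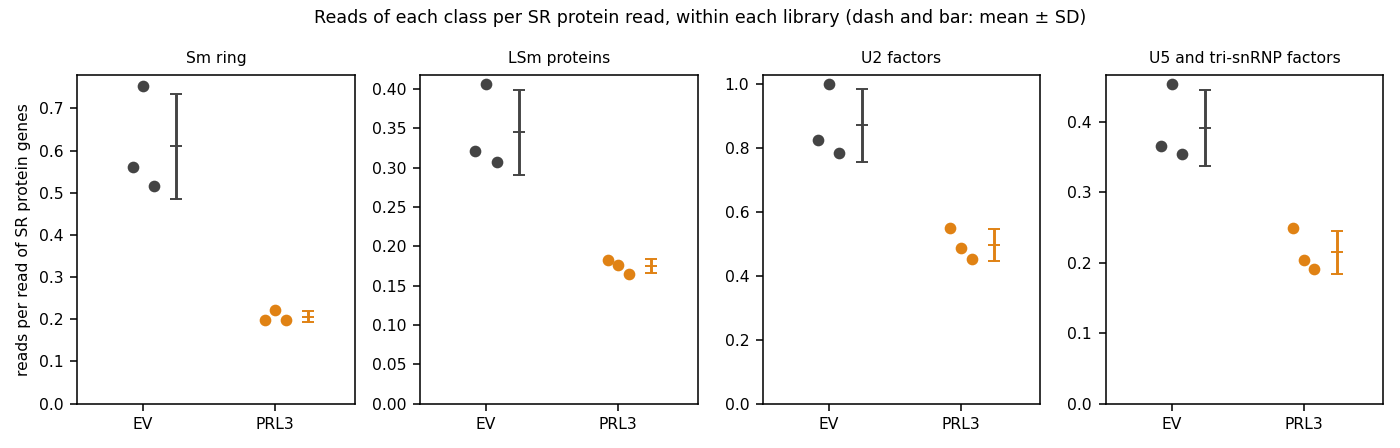
Reads on the genes of 4 classes per read on SR protein genes, 1 point per library, with the mean ± SD of 3 libraries beside the points. The Sm ring ratio is 0.517 to 0.752 in EV libraries and 0.199 to 0.221 in PRL3 libraries, and the groups do not overlap in any panel.

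Of the 8 Sm ring genes, 7 were lower and 0 were higher, with a median log2 fold change of -0.98. SNRPD2, which encodes SmD2 and lies on chromosome 19 (GRCh38, 45687460 to 45692569), had 29724, 38153 and 24264 normalized counts in EV and 5460, 8508 and 5943 in PRL3 libraries. All PRL3 libraries were far below the lowest EV library, and the log2 fold change of -2.21 (SE 0.21, adjusted p = 1.24e-05) was the largest fall among the 64 genes. Per kilobase of annotated exon SNRPD2 was also the most abundant Sm ring transcript in EV cells, at 21314 normalized counts, followed by SNRPB at 5581 and SNRPG at 5511. SNRPB, the gene of SmB and SmB′ (chromosome 20, 2461634 to 2470853), had 26740, 34019 and 25519 normalized counts in EV and 6713, 11314 and 8862 in PRL3 libraries. The groups were well apart, with a log2 fold change of -1.68 (SE 0.20, adjusted p = 3.25e-05). SNRPF, the gene of SmF (chromosome 12, 95858952 to 95903828), gave 7185, 5596 and 5044 against 1455, 2026 and 2429, again without overlap, and a log2 fold change of -1.59 (SE 0.20, adjusted p = 4.91e-05). The other 4 lower genes, SNRPG, SNRPD3, SNRPE and SNRPD1, fell by 0.67 to 1.00 on the log2 scale.

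SNRPN encodes SmN, the close relative of SmB that is known from brain, and was counted low in these cells. It had 182.7, 170.8 and 169.1 normalized counts in EV and 385.1, 204.6 and 261.6 in PRL3 libraries. Each PRL3 library was above each EV library, the opposite of SNRPB, but the log2 fold change of 0.70 (SE 0.28, adjusted p = 0.058) did not pass the threshold. Without PRL3 library B10 it did (0.90, adjusted p = 0.0422), and without B9, the highest library, it was 0.43 (adjusted p = 0.321). It also passed with upper-quartile scaling (adjusted p = 0.0228), with library size alone (0.00455), with protein-coding genes only (0.011) and with at least 10 counts in every library (0.0426). Exons of other genes on the same strand cover 43.9% of the annotated exons of SNRPN, and reads there count as ambiguous.

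Several Sm genes have many processed pseudogenes, which can take or lend reads. SNRPG has 20 in the annotation, whose reads came to 16.7% of those of SNRPG in EV and 6.86% in PRL3 libraries. The 10 of SNRPE came to 4.99% and 1.44%. These pseudogene reads were thus lower in PRL3 relative to the parent gene as well.

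Among the 13 LSm genes 8 were lower and 2 were higher, with a median log2 fold change of -0.90. LSM4 (chromosome 19, 18306236 to 18323112), a subunit of both the U6 ring and the cytoplasmic LSM1 to LSM7 ring of mRNA decay, had 18167, 20517 and 14776 normalized counts in EV and 4226, 6202 and 4803 in PRL3 libraries. These did not overlap, and the log2 fold change was -1.81 (SE 0.18, adjusted p = 1.52e-05). LSM7, a subunit of both rings too (chromosome 19, 2321520 to 2328611), gave 5813, 6646 and 6325 against 1803, 2458 and 1932, a log2 fold change of -1.60 (SE 0.16, adjusted p = 1.46e-05). LSM3 gave 7078, 4379 and 4055 against 1649, 1848 and 1851, with EV library B1 the highest, and a log2 fold change of -1.54 (SE 0.20, adjusted p = 6.54e-05). LSM2 fell by 1.29 on the log2 scale. LSM1, which is specific to the cytoplasmic ring, fell by 0.91.

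The U6 ring was not lower throughout. LSM8, the subunit that sets the nuclear ring apart (chromosome 7, 118184144 to 118204035), had 2553, 2042 and 2252 normalized counts in EV and 3073, 3129 and 3711 in PRL3 libraries. All PRL3 libraries were higher, by a log2 fold change of 0.53 (SE 0.15, adjusted p = 0.0133), although without PRL3 library B11 the adjusted p was 0.0823. Annotated exons cover 87% of the span of LSM8, so reads from its unspliced RNA can be counted as well. Their part in the rise was not tested. LSM6, shared by both rings, had 1690, 1593 and 1684 against 1749, 2782 and 2473. Library B9 lay just above the EV libraries, and the log2 fold change of 0.50 (SE 0.18, adjusted p = 0.0389) was lost without EV library B2 or B3 and without PRL3 library B10 or B11 (adjusted p of 0.0715, 0.064, 0.196 and 0.128). With all uniquely aligned reads as the library neither passed (log2 fold changes of 0.05 and 0.02). LSM5, also of both rings, had 2419, 1364 and 1724 against 1294, 1376 and 1788, which overlapped (log2 fold change -0.31, adjusted p = 0.268). Of the 7 genes of the U6 ring, 4 were thus lower and 2 higher.

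Other LSm genes have separate roles. LSM10 and LSM11 belong to the U7 snRNP of histone mRNA processing. LSM10 fell by 1.09 on the log2 scale, while LSM11 had a log2 fold change of 0.08 (adjusted p = 0.768). LSM14A and LSM14B are proteins of cytoplasmic mRNP granules, with values of -0.07 (adjusted p = 0.75) and -0.44 (adjusted p = 0.0332). The LSM14B call was lost when any library other than EV B1 was left out, with an adjusted p between 0.0512 and 0.153, and with library size alone the value changed sign (0.05, adjusted p = 0.789). LSM12, a more distant relative of the family, fell by 0.90, but 64.7% of the 64-base windows of its exons have an exact copy elsewhere in GRCh38.

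**Figure D3:**
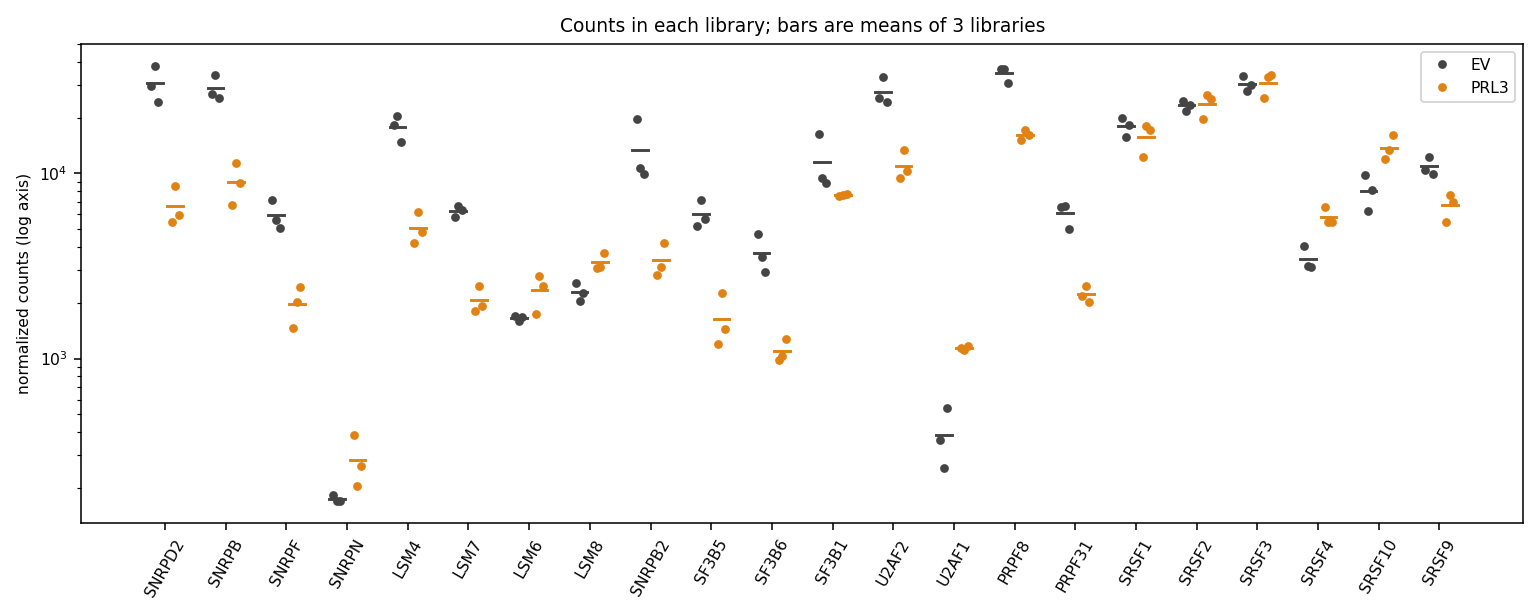
Normalized counts of selected genes in each library on a log axis, with the mean of 3 libraries as a bar. SNRPD2, SNRPB, SNRPF, LSM4, LSM7, SNRPB2, SF3B5 and SF3B6 separate widely, the EV and PRL3 points of SRSF1, SRSF2 and SRSF3 overlap, and LSM6, LSM8, U2AF1, SRSF4 and SRSF10 are higher in PRL3.

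Of the 5 U1 factors 1 passed, and the class had a median log2 fold change of -0.37, which was -0.0162 without EV library B1. The count was 2 with DESeq2, RLE scaling, limma-voom or no low-count filter and without EV library B1 or B2, and 3 with all uniquely aligned reads as the library. SNRPC, the gene of U1-C, which helps U1 recognise the 5′ splice site (chromosome 6, 34757505 to 34773857), had 6903, 7485 and 5812 normalized counts in EV and 2186, 2508 and 2199 in PRL3 libraries. The groups were far apart, with a log2 fold change of -1.55 (SE 0.15, adjusted p = 1.37e-05). The 18 pseudogenes of SNRPC took reads equal to 0.755% of its own in EV and 8.72% in PRL3. SNRPA, a U1 protein that binds a stem-loop of U1 RNA, had a log2 fold change of -0.37 (adjusted p = 0.0591), and passed without EV library B1 (-0.45, adjusted p = 0.0266).

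Of the 14 U2 factors 8 were lower and 1 was higher, with a median log2 fold change of -0.71. SNRPB2 encodes U2B″, which binds a stem-loop of U2 RNA (chromosome 20, 16729961 to 16742564). It had 19570, 10745 and 9899 normalized counts in EV and 2835, 3119 and 4214 in PRL3 libraries. EV library B1 was high, but even the lowest EV library was above all PRL3 libraries (log2 fold change -1.98, SE 0.25, adjusted p = 4.6e-05). SNRPA1, the gene of its partner in the U2 particle, had a log2 fold change of 0.26 (adjusted p = 0.213). SNRPA1 did pass with library size alone, with protein-coding genes only and with upper-quartile scaling.

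Of the SF3B complex, which holds the branch site in U2, 5 of 6 subunit genes were lower, with a median log2 fold change of -0.90. SF3B5 is a small subunit whose gene has no annotated intron (chromosome 6, 144094884 to 144095573). It gave 5197, 7182 and 5702 normalized counts in EV and 1203, 2268 and 1436 in PRL3 libraries, a clear separation with a log2 fold change of -1.88 (SE 0.22, adjusted p = 3.3e-05). SF3B6, the subunit that contacts the branch-site adenosine (chromosome 2, 24067586 to 24076373), gave 4696, 3524 and 2925 against 987.4, 1036 and 1268, a log2 fold change of -1.76 (SE 0.19, adjusted p = 2.01e-05). SF3B4 and SF3B2 fell by 0.97 and 0.83 on the log2 scale, and SF3B3 had a value of -0.08 (adjusted p = 0.661).

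SF3B1, the large scaffold of the complex that encloses the branch helix (chromosome 2, 197388515 to 197435079), had 16217, 9446 and 8858 normalized counts in EV and 7583, 7676 and 7758 in PRL3 libraries. EV library B1 was well above the others, and the remaining EV libraries were only a little above PRL3. The log2 fold change was -0.58 (SE 0.21, adjusted p = 0.0359). Without EV library B1 it was -0.26 (adjusted p = 0.162), and the call was also lost without PRL3 library B9, B10 or B11 (adjusted p of 0.105, 0.0872 and 0.102). It did not pass with upper-quartile scaling (-0.39, adjusted p = 0.109), with protein-coding genes only (-0.40, adjusted p = 0.0976) or with library size alone (-0.08, adjusted p = 0.739).

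Of the SF3A complex, which joins SF3B in the mature U2 particle, SF3A3 fell by 0.85 on the log2 scale. SF3A2 had 3246, 5062 and 3937 normalized counts in EV and 2830, 3573 and 3207 in PRL3 libraries. The ranges overlapped (log2 fold change -0.35, adjusted p = 0.132), and leaving out 1 library moved the value between -0.50 without EV library B1, where the gene passed (adjusted p = 0.0299), and -0.15 without EV library B2 (adjusted p = 0.51). SF3A1 had a value of -0.22 (adjusted p = 0.24).

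The genes of the U2AF heterodimer, which recognises the 3′ splice site ahead of U2, went opposite ways in the counts. U2AF2 binds the polypyrimidine tract (chromosome 19, 55654146 to 55674716). It had 25507, 33154 and 24289 normalized counts in EV and 9466, 13333 and 10238 in PRL3 libraries, a separation of the groups with a log2 fold change of -1.33 (SE 0.18, adjusted p = 8.37e-05). U2AF1 binds the AG at the intron end (chromosome 21, 43092956 to 43107570, minus strand). It had 362.9, 255.1 and 538.3 against 1147, 1106 and 1164, a log2 fold change of 1.56 (SE 0.24, adjusted p = 0.000211). These counts do not measure the spliced coding transcript of U2AF1. In GRCh38, 92.6% of the 64-base windows of its exons have an exact copy elsewhere, and all 8 coding exons, 720 bases, recur at a second place on chromosome 21 (6484623 to 6499248) that GENCODE 44 lists as an artifact. Coding exon 3 shows this, since these 67 bases at chr21:43100453-43100519 are the same at chr21:6492131-6492197, in both cases on the minus strand:
U2AF1 coding exon 3: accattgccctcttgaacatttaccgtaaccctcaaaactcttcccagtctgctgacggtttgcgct
A read pair lying within such copies aligns to both places and was not counted on either gene. The second place gave 316.6, 205.7 and 501.9 normalized counts in EV and 1189, 1081 and 1235 in PRL3 libraries (log2 fold change 1.77, SE 0.27, adjusted p = 0.000183), much as U2AF1 did.

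The U5 and tri-snRNP factors comprised 3 lower and 0 higher genes of 5, with a median log2 fold change of -0.84. PRPF8, the largest U5 protein and the scaffold of the catalytic centre (chromosome 17, 1650629 to 1684867), had 36423, 36797 and 30925 normalized counts in EV and 15046, 17135 and 16118 in PRL3 libraries. The groups were well apart, with a log2 fold change of -1.11 (SE 0.15, adjusted p = 7.88e-05). PRPF31, a U4/U6 protein needed to form the tri-snRNP (chromosome 19, 54115410 to 54131719), gave 6616, 6634 and 5008 against 2179, 2476 and 2010, a log2 fold change of -1.45 (SE 0.16, adjusted p = 2.38e-05). PRPF6, which bridges U5 and U4/U6, gave 8450, 8326 and 7519 against 4539, 4748 and 4271, a log2 fold change of -0.84 (SE 0.14, adjusted p = 0.000379). All 3 separated the groups. The U4/U6 proteins PRPF3 and PRPF4 differed, with overlapping libraries and log2 fold changes of -0.11 (adjusted p = 0.57) and -0.02 (adjusted p = 0.934). PRPF3 had 6379, 5544 and 5816 normalized counts in EV and 6099, 5089 and 5230 in PRL3 libraries.

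Among the other PRPF genes 1 was lower and 1 higher. PRPF19, a ubiquitin ligase of the complex that accompanies spliceosome activation, had 22655, 25746 and 21234 normalized counts in EV and 11118, 14729 and 12566 in PRL3 libraries (log2 fold change -0.86, SE 0.16, adjusted p = 0.000817). PRPF38B, a relative of the spliceosomal protein PRPF38A, had 5558, 2726 and 3674 against 8171, 7284 and 9300. Every PRL3 library was above every EV library (log2 fold change 1.05, SE 0.22, adjusted p = 0.00197). With all uniquely aligned reads as the library the PRPF38B call was lost (0.57, adjusted p = 0.0575). PRPF4B, a kinase of spliceosomal proteins, had 4731, 2042 and 2449 against 3158, 3042 and 3904, and EV library B1 alone lay above the PRL3 libraries. Its log2 fold change was 0.13 (adjusted p = 0.711), and 0.59 without that library (adjusted p = 0.0133). PRPF38A and PRPF18 had values of -0.07 and -0.09, neither past the threshold.

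Of the 12 SR protein genes 1 was lower, 2 were higher and 9 did not pass, with a median log2 fold change of 0.03. SRSF1, the founding member of the family (chromosome 17, 58000919 to 58007346), had 19875, 15754 and 18159 normalized counts in EV and 12192, 17998 and 17086 in PRL3 libraries. These overlapped (log2 fold change -0.19, SE 0.18, adjusted p = 0.422). SRSF2, known for binding exonic enhancers, had 24714, 21607 and 23439 against 19597, 26462 and 25138, and SRSF3, the smallest family member, had 33395, 27767 and 29965 against 25477, 33306 and 34016. In both the groups overlapped, with log2 fold changes of 0.03 (SE 0.16, adjusted p = 0.899) and 0.03 (SE 0.16, adjusted p = 0.913), whose sign changed under several alternatives. SRSF5, SRSF6, SRSF7 and SRSF8 lay between -0.16 and 0.29 without passing. SRSF12 was near the limit of detection, with 4.872 to 25.3 normalized counts.

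The SR protein genes that passed were SRSF4, SRSF10 and SRSF9. SRSF4, the longest SR protein (chromosome 1, 29147743 to 29181900), had 4028, 3165 and 3113 normalized counts in EV and 6545, 5441 and 5495 in PRL3 libraries, all of the latter higher (log2 fold change 0.76, SE 0.16, adjusted p = 0.0018). SRSF10, which represses splicing when dephosphorylated (chromosome 1, 23964347 to 23980927), had 9820, 6261 and 8087 against 11902, 13305 and 16070, again without overlap (log2 fold change 0.77, SE 0.18, adjusted p = 0.00442). With all uniquely aligned reads as the library neither passed (0.28 and 0.29). SRSF9, a short SR protein (chromosome 12, 120461672 to 120495946), had 10384, 12330 and 9955 against 5440, 7683 and 6994, and fell by 0.70 on the log2 scale (SE 0.17, adjusted p = 0.00429). With library size alone it did not pass (-0.21, adjusted p = 0.237). SRSF11 had 11630, 6943 and 6694 against 5893, 6102 and 6845, with EV library B1 high. Its log2 fold change was -0.42 (adjusted p = 0.107), which ranged from -0.12 without EV library B1 (adjusted p = 0.54) to -0.57 without EV library B3, where it passed (adjusted p = 0.038). The transmembrane protein gene LSMEM1, taken in by name alone, had 45.06 to 50.01 normalized counts in EV and 123.3 to 163 in PRL3 libraries (log2 fold change 1.57, adjusted p = 0.00242), with 59.8% of its exons shared with another gene. LSMEM2 did not pass (34.1, 33.69 and 75.47 against 38.09, 37.21 and 26.8).

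Further genes of the splicing pathway were counted from lists of known components. Of 59 other snRNP and spliceosome proteins, 27 were lower and 6 higher, with a median log2 fold change of -0.30. Their shares, 45.8% and 10.2%, are close to those of the 64 genes. The lowest p among them belonged to SNU13, which starts tri-snRNP assembly on U4 RNA (-1.42, adjusted p = 2.07e-05), and BUD31, a protein of the activated spliceosome (-1.37, adjusted p = 2.11e-05). SNRNP70, the U1 protein that contacts SR proteins, fell by 0.69 (adjusted p = 0.00339). The higher genes included RNPC3 of the minor spliceosome (1.12, adjusted p = 0.000201) and the RNA helicase gene DDX39B (0.74, adjusted p = 0.00091).

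Of 16 genes for Sm ring assembly, 6 were lower and 1 was higher (median log2 fold change -0.40), and the 37.5% that were lower lie near the 31.6% of protein-coding genes. PRMT5, which methylates arginines of Sm proteins before the SMN complex loads them on RNA, had 8805, 8139 and 6938 normalized counts in EV and 2283, 2456 and 2254 in PRL3 libraries. PRL3 libraries were all far lower, with a log2 fold change of -1.77 (SE 0.15, adjusted p = 8.62e-06). STRAP of the SMN complex fell by 1.07, and GEMIN8 was higher (0.68, adjusted p = 0.00621). SMN1 and SMN2 are near-identical copies whose reads cannot be assigned with certainty, and neither passed (-0.69 and 0.28, adjusted p = 0.0768 and 0.554).

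The next shares stand beside 31.6% lower and 15.2% higher among protein-coding genes. The hnRNP proteins, which coat nascent RNA, included 13 lower (59.09%) and 0 higher of 22 genes (median -0.55). HNRNPC was at -1.17 (adjusted p = 7.34e-05) and HNRNPAB at -1.02 (adjusted p = 0.000215). Of the 5 genes of the exon junction complex, deposited on spliced mRNA, 3 (60%) were lower, among them EIF4A3 (-1.25, adjusted p = 5.55e-05) and MAGOH (-1.10, adjusted p = 0.000809). The 17 genes of SR protein kinases and SR-related proteins had 3 lower (17.65%) and 6 higher (35.29%), with a median of 0.16. TRA2B, an SR-like activator of exons, had 18638, 13704 and 20395 normalized counts in EV and 37920, 41091 and 47202 in PRL3 libraries (log2 fold change 1.26, SE 0.18, adjusted p = 0.000111). CLK1, a nuclear kinase of SR proteins, was also higher (0.98, adjusted p = 0.00152), and SRPK1, a mainly cytoplasmic one, was lower (-0.60, adjusted p = 0.0144). Of 8 decapping partners of the LSM1 to LSM7 ring, 2 were lower and 0 higher, a share of 25% that is below the 31.6% of protein-coding genes. The lower genes were EDC4 (-0.81, adjusted p = 0.00184) and EDC3 (-0.43, adjusted p = 0.0416).

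**Figure D4:**
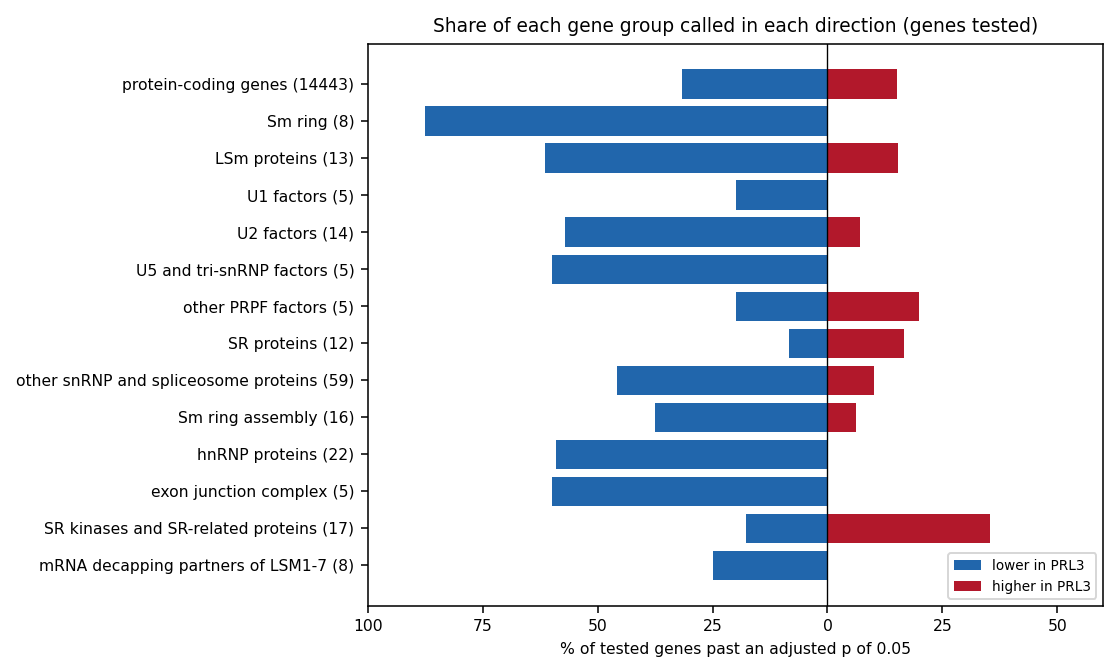
Percent of the tested genes of each class or list that were lower (to the left) or higher (to the right) in PRL3 libraries at an adjusted p of 0.05, with the number of genes tested in brackets. Protein-coding genes as a whole had 31.6% lower and 15.2% higher, the Sm ring 87.5% lower, and the SR protein genes 8.33% lower and 16.7% higher.

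The classes differ in gene structure, which matters because only reads on annotated exons were counted. Annotated exons made up a median of 18.4% of the gene span in Sm ring genes, 17% in LSm genes, 24.4% in U2 factors and 55.6% in SR protein genes. Across the 64 genes the log2 fold change was higher in genes with more exonic sequence (Pearson's r = 0.566, Spearman's rho = 0.567 on log10 bases) and in genes with a larger exon share (r = 0.294, rho = 0.328), both given across genes from the same 6 libraries, where genes are not independent replicates. For the 14379 other protein-coding genes these r values were 0.25 and -0.16, so the exon share ran the other way. Of the 15 members with exons under 15% of the span, 10 were lower and 0 higher (median log2 fold change -0.85). Other protein-coding genes under 15% were 23.1% lower and 16.8% higher, with a median of -0.0076. Of the 14 members with at least 50%, 3 were lower and 4 higher (median 0.09), whereas other protein-coding genes with at least 50% had a median of -0.50 and 45.1% lower. The 4 higher members were LSM8 (87%), U2AF1 (75.9%), SRSF10 (71.5%) and PRPF38B (65.5%). SNRPB and SF3B5 stood out as high exon shares, 55.9% and 100%, with large falls, and SRSF8, likewise without an intron, had a value of -0.10. The part of gene structure in the class differences was not tested.

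**Figure D5:**
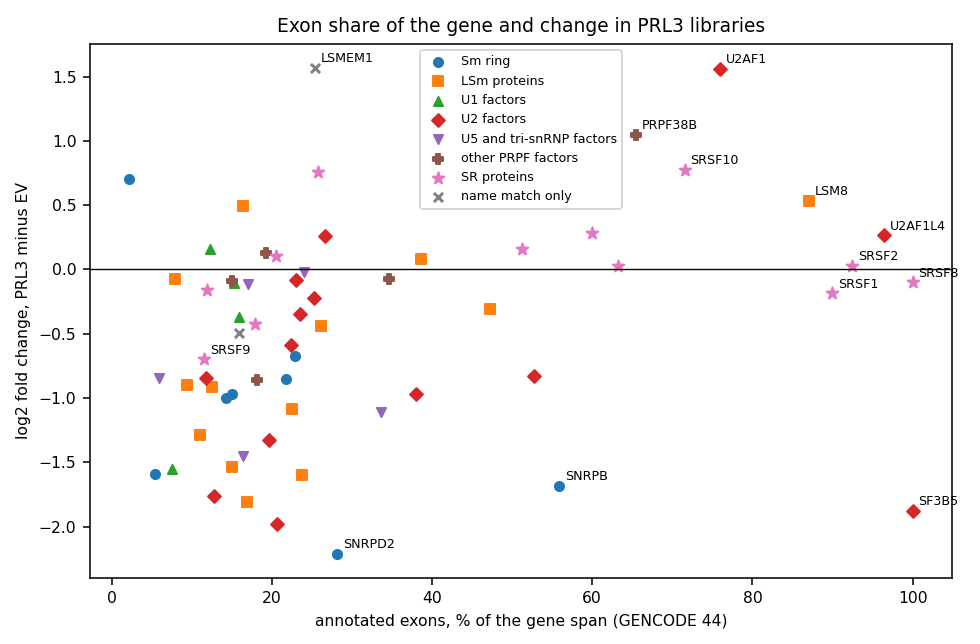
Log2 fold change, PRL3 minus EV, of 63 of the 64 genes against the percent of the gene span covered by annotated exons, with a marker per class. SR protein genes (stars) have a median exon share of 55.6%, and SNRPB and SF3B5 are low despite shares of 55.9% and 100%.

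The paper reports genes whose intronic reads accumulated toward the 5′ end in PRL3 cells, and far fewer toward the 3′ end. Its list of 1785 symbols holds both sets, which were not separated here, and 13 of the 64 genes are on that list. These are 20.3% of the members, and 12% of all protein-coding genes tested are on it. Of the 13, 9 (69.2%) were lower and 1, LSM6, was higher, with a median log2 fold change of -1.11. Of the 1732 protein-coding genes of the whole list that matched by symbol, 55.7% were lower and 5.66% higher, with a median of -0.54. The other 51 had 20 lower, 6 higher and a median of -0.16. The list was drawn from these same libraries and is not independent evidence of a direction. It includes SNRPB, SNRPG, SNRPC, LSM4, SF3B1, SF3B6, U2AF2, PRPF8, PRPF31 and, among SR protein genes, SRSF11 alone.

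Promoter letters were compared because many of the genes moved together. RefSeq promoter windows (GRCh38.p14) were found for 54 of the 64 genes, and the 250 bases before the start were searched on both strands in 69 windows. Those bases lay outside annotated exons in 16 of the 69 windows and overlapped an annotated exon in the rest. CCGGAAG, the core bound by ETS factors, occurred in 31.9% of the 69 windows, against 10.7% of the windows of all protein-coding genes and 8.52% of all windows. It was found in 41.2% of windows of lower genes (14 of 34), 28.6% of higher genes (2 of 7) and 21.4% of those not past the threshold (6 of 28). Windows of the same gene can overlap. No such split was made for other protein-coding genes, and the difference was not tested. By class it was in 64.3% of U2 factor windows, 40% of Sm ring windows, 16.7% of LSm windows and 14.3% of SR protein windows. CCAAT was in 29% of the members' windows and 32.7% of protein-coding windows, the E-box CACGTG in 4.35% and 7.37%, TATAAA in 7.25% and 9%, and AAGATGGC, a YY1 core, in 1.45% and 1.38%. The ETS core ends with the letters that AAGATGGC begins with, so matches of these motifs can share bases, and the other motifs were counted on their own.
Short stretches around the ETS core are shown for U2 and U5 factors and, for contrast, for LSM8 and SRSF4, which were higher, with 1 stretch per gene and none from a place with an annotated exon. The core is in capitals, as CCGGAAG or as its reverse complement CTTCCGG, and the strand is that of the gene.
SNRPB2, chr20:16729919-16729948, plus: gctgccagagacCCGGAAGcatcgatcggc
SF3B6, chr2:24076468-24076497, minus: acggtacagagcCCGGAAGtgtcttggact
SF3B4, chr1:149927812-149927841, minus: tccgtcttcgccCCGGAAGtggaagtcgtg
SNRPA1, chr15:101295344-101295373, minus: cgcgcgccacgaCTTCCGGcaagaacgccc
PRPF6, chr20:63981014-63981043, plus: ccctagccgcggCCGGAAGtcgtcgaacca
LSM8, chr7:118183963-118183992, plus: tgtcttacgaggCTTCCGGaacacggccca
SRSF4, chr1:29182124-29182150, minus: gtgcggacaCTTCCGGgggaggggcga
The core lies 95, 159, 26, 113, 106, 189 and 241 bases before the start in this order, and it occurs in genes that were lower, higher and not past the threshold alike.
The intronless SF3B5 has no ETS core in its window. Its 250 bases are shown whole, as the strongest fall among genes whose window is free of annotated exons, with the single CCAAT in capitals.
SF3B5, chr6:144095574-144095823, minus: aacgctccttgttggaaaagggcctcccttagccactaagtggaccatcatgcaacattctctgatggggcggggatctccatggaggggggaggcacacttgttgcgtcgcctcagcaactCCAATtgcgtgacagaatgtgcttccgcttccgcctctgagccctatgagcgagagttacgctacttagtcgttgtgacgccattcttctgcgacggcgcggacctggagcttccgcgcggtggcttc
A match is a description of the letters and does not show that a factor binds there.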

How the data were processed

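The 6 libraries of A375 cells, 3 EV and 3 PRL3, hold 4sU-labelled RNA. Per the submitters' processing notes and the paper's methods, paired reads were aligned by the authors to GRCh38 using STAR 2.5.1b and counted reads on exons of Ensembl release 91 genes with HTSeq 0.6.1, reverse strand. The deposited values are raw counts per gene. The counter's 5 summary entries (no feature, ambiguous and others) name no gene and were kept out of library sizes and tests; reads on no feature were 28.7% to 41.07% of uniquely aligned reads in EV and 62.81% to 69.06% in PRL3 libraries, and ambiguous reads 4.46% to 5.009% and 1.671% to 2.535%. Symbols, classes of transcript and coordinates came from GENCODE 44, matched for 57532 of 58243 identifiers.

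The test was run under R 4.3.3 in edgeR 4.0.16 (TMM scaling, filterByExpr, quasi-likelihood test, Benjamini-Hochberg adjustment over 23884 genes, threshold 0.05). For normalized counts, each count was divided by its library's effective size, then multiplied by the mean effective size. SEs of log2 fold changes come from the quasi-likelihood F statistic. With 3 libraries against 3, an exact permutation test of a single gene cannot fall below p = 0.1. No 2 libraries were alike within counting error, and each counted as 1 replicate. The lowest chi-square per gene, averaged over genes, was 22.6 for B10 and B11, and other pairs within a group had 49.42 to 70.97. This does not show that the libraries came from separate cultures. The procedure was also run on simulated independent counts with few changed genes, equally many up and down. In these data far more genes were called and scaling factors differed by group, so that run does not test the scaling here. Exact copies of exon windows of 64 bases were searched in GRCh38, and promoters were taken from RefSeq.

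The members, classes and lists were chosen with earlier results of these data known. Per-library values are given, in each class, for up to 3 genes per direction, taken by smallest p among those whose groups do not overlap, for the gene with the largest change that did not pass, and for SNRPB, SNRPN, SF3B1, U2AF1, U2AF2, PRPF8, SRSF1, SRSF2 and SRSF3; other members are given by log2 fold change, and 1 member is not reported here by itself, though it is part of the counts and medians. Of each pathway list up to 2 genes per direction are named, with SMN1, SMN2 and SNRNP70. PRMT5 and TRA2B are printed per library as the genes of smallest p in their lists. Alternatives were other scalings, DESeq2 1.42.0, limma-voom (limma 3.58.1), other low-count filters, a fit of protein-coding genes only, a threshold of 0.01 on the adjusted p, and leaving out each library.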

Additional observations from a re-analysis of the deposited data

How the results depend on the processing

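Of the 36 calls, 32 stood whichever single library was left out, and 21 lower and 2 higher genes (the latter U2AF1 and LSMEM1) kept their call in all 16 alternatives. With library size alone the median log2 fold change was 0.10 for the 64 genes, -0.49 for the Sm ring, -0.40 for LSm genes, 0.13 for U1 factors, -0.21 for U2 factors, -0.35 for U5 and tri-snRNP factors, 0.43 for other PRPF factors and 0.51 for SR protein genes, with 22 members higher. In the same setting 17 of the 64 genes changed sign, of which LSM14B (0.0512) had been called, and of those given per library LSM5 (0.19), SF3A2 (0.14), PRPF3 (0.39), SRSF11 (0.0774) and SRSF1 (0.30) did so. With all uniquely aligned reads the medians were, in the same order, -0.88, -1.47, -1.38, -0.85, -1.19, -1.32, -0.56 and -0.45, with 2 members higher, and of 10 sign changes PRPF4B (-0.36), SRSF2 (-0.45) and SRSF3 (-0.45) were among those given per library. With protein-coding genes only the medians that moved were -0.21 (the 64 genes), -0.71 (LSm), -0.19 (U1), -0.52 (U2), -0.66 (U5) and 0.11 (other PRPF), and PRPF3 was 0.0718. With upper-quartile scaling they were -0.21, -0.71, -0.19, -0.52, -0.66 and 0.11, and PRPF3 was 0.0735. With RLE scaling and with DESeq2, SRSF2 was -0.0084 and SRSF3 -0.0114. The cause of these changes was not tested beyond the shift that each scaling gives all genes.

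Leaving out each library in turn gave medians of -0.44 to -0.27 for the 64 genes, -0.98 to -0.75 for LSm genes, -0.41 to -0.0162 for U1 factors and -0.81 to -0.62 for U2 factors, with the values nearest 0 without EV library B1. It gave log2 fold changes of -0.0778 to 0.59 for PRPF4B, -0.0503 to 0.16 for SRSF2 and -0.038 to 0.16 for SRSF3. No paired analysis was possible because EV and PRL3 libraries carry no number in common. Depth limited few members, SRSF12 and LSMEM2 being the lowest.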
